A study of Homo sapiens with 8 samples.

Results

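Genes whose symbol consists of MRPL or MRPS followed by a number and at most 1 letter were taken as the mitochondrial ribosomal protein genes. The rule selected 78 of the 60282 genes listed, and all 78 passed the filter of more than 1 CPM (the count of a gene relative to the size of its library) in no fewer than 4 of the 8 libraries, which left 14073 genes to test. RNA was sequenced from SK-UT-1, an established human cell line derived from a uterine leiomyosarcoma, a malignant tumor of the smooth muscle of the uterus. The vehicle group received DMSO and the TP-472 group received 5 µM TP-472, a chemical inhibitor of the bromodomain proteins BRD9 and BRD7, each for 48 h and each with 4 replicates. Both groups stem from 1 cell line, and the study's methods call the replicates of its experiments biological in general. No label says whether these libraries came from separate cultures, so p-values measure the spread between these libraries, which may in part be technical.

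Mitochondria make a small set of respiratory chain proteins from their own genome with a dedicated ribosome, the mitoribosome. Its rRNAs are encoded in mitochondrial DNA, whereas all of its proteins are encoded in the nucleus, made in the cytosol and imported. Part of these proteins descend from the bacterial ribosome, and the others were added during the evolution of mitochondria. MRPL and MRPS stand for proteins of the large and the small subunit, although MRPS30 and MRPS18A were later located in the large subunit. With these assigned by their place, 51 members belonged to the large subunit and 26 to the small subunit. MRPS36 was assigned to neither subunit and to no origin, although its symbol fits the rule. It is kept in the counts and sums over all 78 members. Of the members with a subunit, 47 were of bacterial origin and 30 were specific to mitochondria.

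Promoters of the members are shown first, and a link between their sequences and the changes below was not tested. RefSeq promoters of build GRCh38.p14, from 250 bases before to 50 bases after the start, were available for 69 of the 78 members and for 27305 genes in all. They were searched on both strands for the letters of 4 motifs of factors known to act at promoters of nuclear genes for mitochondrial proteins, and no motif contains another. CCGGAAG, the core of ETS factors such as GABPA, was found in 29 member promoters (42.0%) and in 10.7% of all promoters. ATGGCGGC, the YY1 motif, was found in 19 (27.5%) and in 3.21% of all. GCGCANGCG, the NRF1 motif, was found in 13 (18.8%) and in 8.05% of all, and CACGTG, the E box bound by MYC among others, in 6 (8.7%) and in 7.43% of all. The ETS core, YY1 and NRF1 letters were therefore found in a larger share of member promoters than of all promoters, whereas the E box share was close to that of all. The 27305 promoters were not limited to the 14073 genes tested, whereas all members passed the filter. Whether the shares differ from those of other expressed genes was not examined. A match in these letters is a description of the sequence and not evidence of binding. Below are the 250 bases before the start for the members with the highest estimates of change, MRPL36 (chr5:1799838-1800087, minus strand) and MRPS17 (chr7:55951627-55951876, plus strand), and for the member with the lowest estimate, MRPL12 (chr17:81703117-81703366, plus strand). Each is written 5′ to 3′ with motif letters in capitals.
MRPL36: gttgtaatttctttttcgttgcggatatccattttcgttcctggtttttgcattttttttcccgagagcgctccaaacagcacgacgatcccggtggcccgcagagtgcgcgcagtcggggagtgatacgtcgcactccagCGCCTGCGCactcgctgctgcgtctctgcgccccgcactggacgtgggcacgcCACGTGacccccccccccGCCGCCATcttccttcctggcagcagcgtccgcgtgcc
MRPS17: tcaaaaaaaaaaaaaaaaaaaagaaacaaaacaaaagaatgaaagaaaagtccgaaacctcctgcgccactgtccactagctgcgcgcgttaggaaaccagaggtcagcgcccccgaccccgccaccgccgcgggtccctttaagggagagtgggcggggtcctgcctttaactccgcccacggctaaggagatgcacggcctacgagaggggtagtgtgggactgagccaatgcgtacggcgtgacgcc
MRPL12: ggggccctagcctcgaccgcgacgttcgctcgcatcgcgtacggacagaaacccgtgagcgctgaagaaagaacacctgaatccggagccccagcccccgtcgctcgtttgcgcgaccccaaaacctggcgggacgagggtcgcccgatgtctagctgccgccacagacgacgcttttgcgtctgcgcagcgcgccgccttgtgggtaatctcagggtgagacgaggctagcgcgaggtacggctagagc
The MRPL36 promoter holds an NRF1, an E box and a YY1 match, the NRF1 and YY1 letters on the opposite strand, and the other 2 promoters hold none of the 4 motifs in this window.

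The vehicle libraries, in the order of their replicate numbers, totaled 34433596, 36634184, 32574716 and 36407850 estimated counts, and the TP-472 libraries 38545695, 37674588, 37427131 and 36246466. Values by library are given in this order throughout. Members were well covered, since the lowest count of any member in any library was 254. In vehicle libraries, the mean level of a member lay between 9.62 and 126 CPM, with a median of 38.9. Levels below are CPM after TMM scaling, which corrects for differences in library composition.

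The label of the line was compared with smooth muscle markers. ACTA2 and TAGLN, which encode a contractile actin and an actin-binding protein, were present at vehicle means of 160 and 32.3 CPM, and CALD1, the most abundant of the list, ranged from 178 to 211 CPM in vehicle libraries. DES, encoding the muscle filament desmin, was at 3.25 CPM, and MYH11 and MYOCD, the smooth muscle myosin and a master regulator, were at or near 0 with vehicle means of 0.00703 and 0.0418 CPM. Of 9 smooth muscle markers, 7 were tested, and ACTA2, TAGLN, LMOD1 and DES fell with TP-472 by edgeR. LMOD1 and DES passed the filter through the vehicle group alone, where they were higher, so they had to differ, and they were not tested without vehicle replicate 3. The summed level of all 9 was 439, 479, 524 and 481 CPM in vehicle and 380, 378, 373 and 371 CPM in TP-472 libraries. Of other cell types, the leukocyte genes PTPRC and CD3E were at 0 in every vehicle library. The leukocyte list was carried by CD68 (7.53 CPM in vehicle), which rose, and summed to 6.68, 7.85, 7.73 and 7.95 CPM in vehicle and to 12.3, 11.3, 9.52 and 9.01 CPM in TP-472 libraries. The 4 endothelial markers summed to at most 0.144 CPM in vehicle and 0.581 CPM in TP-472 libraries. Of 6 epithelial markers, KRT18 rose, KRT19 fell and KRT8 did not pass the test, and CDH1 and EPCAM had vehicle means of 0.417 and 0.731 CPM. The epithelial sum was 18.2, 18.4, 24.0 and 19.3 CPM in vehicle and 25.1, 27.9, 25.5 and 21.1 CPM in TP-472 libraries. The part of these markers in the results on members was not tested.

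One library stood apart for the members. Vehicle replicate 3 held the lowest of the 8 values for 55 of the 78 members and the highest for 7. Over all genes tested, it was the lowest of 8 for 36.5% and the highest for 35.8%, so it lay at the extremes for most genes, but mainly on the low side for members. Relative to the mean of the other 3 vehicle replicates, it was lower for 61 members and higher for 17, more than 2-fold lower for 14 and more than 2-fold higher for 3. The deviation went with the GC content of the transcripts, which ranged from 35.0% to 71.9% among members. Spearman's rho across members was 0.692 (n = 78 genes that share the same 4 libraries) and across all genes with a known GC content 0.769 (n = 13970), and with transcript length it was 0.055 across members. The median deviation on the log2 scale was -1.002 in the 20 members below 45% GC, -0.434 in the 37 members between 45% and 55%, and 0.225 in the 21 members with 55% or more. The main counts and the estimates of members described singly are therefore given with and without vehicle replicate 3. In the TP-472 group, replicate 4 held the lowest value for 62 members, at a smaller distance, since the median coefficient of variation over all members was 8.51% in the TP-472 group and 20.2% in the vehicle group. It was 12.3% in the vehicle group without replicate 3.

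**Figure D1:**
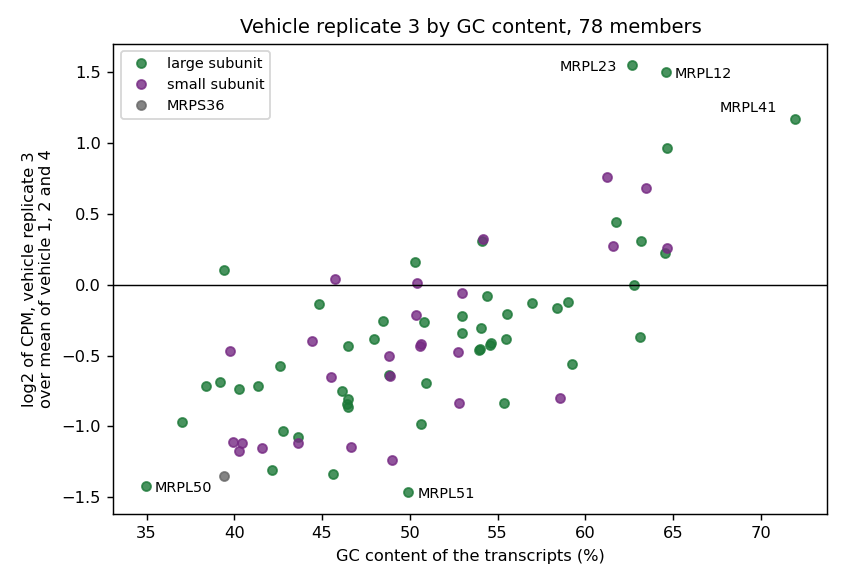
Deviation of vehicle replicate 3 by GC content. Each point is 1 of the 78 members, colored by subunit. The horizontal axis is the GC content of its transcripts in percent, and the vertical axis is the log2 of its CPM in vehicle replicate 3 over the mean of vehicle replicates 1, 2 and 4. Of the 20 members below 45% GC, 1 lies above 0, against 11 of the 21 members with 55% GC or more, and MRPL23 and MRPL12 are highest.

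Mitochondrial ribosomal protein genes that passed the test were all higher in TP-472-treated cells. With edgeR at an adjusted p under 0.05, 27 of the 78 members (34.6%) rose, against 17.2% of all genes tested, and 0 fell, against 19.1% of all genes. With a change of more than 1.5-fold in addition, 15 members (19.2%) rose, against 12.0% of all genes, and 0 fell, against 14.9%. At an unadjusted p under 0.05, 43 members were higher and 0 lower by edgeR, and DESeq2 and limma-voom also called 0 lower. The share of all genes at an unadjusted p was not counted, so the 43 cannot be set against it. The median log2 fold change was 0.40 for members and -0.03 for all genes tested. The estimate was above 0 for 72 members (92.3%), against 48.2% of all genes, and for 71 without vehicle replicate 3. As bulk RNA was measured, a change in the share of cells of a type and a change in RNA per cell cannot be told apart.

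In 33 members (42.3%), all 4 TP-472 libraries lay above all 4 vehicle libraries, against 23.8% of all genes, and in 0 members all lay below, against 21.6%. Without vehicle replicate 3, the groups separated upward for 42 members (53.8%), against 29.8% of all genes. In that fit, 49 members (62.8%) rose, against 28.6% of all genes, with a median log2 fold change of 0.34. More than 1.5-fold, 10 members (12.8%) rose, against 12.0% of all genes, so the share over this fold was close to that of all genes in that fit. With the trend on GC content removed and all libraries kept, 48 members (61.5%) rose, against 28.5% of all genes. All 27 members called with all libraries were also called in both of these fits. Across the 78 members, Spearman's rho of the log2 fold change with GC content was -0.2 in the main fit. It was 0.152 without vehicle replicate 3 and 0.376 with the GC trend removed. The latter estimates thus followed GC content among members in the opposite direction to the main fit, and more closely. From the main fit to the fit with the GC trend removed, the median of members with 55% GC or more went from 0.361 to 0.679. Their calls went from 7 to 15. Below 45% GC, the median went from 0.421 to 0.358 and the calls from 3 to 10. The number of calls depended on the libraries included, for members as for all genes. It was 13 (16.7%, against 10.5% of all genes) without TP-472 replicate 1, 10 (12.8%, against 10.3%) without TP-472 replicate 2 and 9 (11.5%, against 10.0%) without TP-472 replicate 3. Without vehicle replicate 1 it was 10 (12.8%, against 12.4%). In these 4 fits the share of members called was thus close to or moderately above that of all genes, whereas the median log2 fold change of members stayed between 0.355 and 0.415. The count over 1.5-fold was 9 (11.5%, against 8.53% of all genes) without TP-472 replicate 2 and 8 (10.3%, against 8.4%) without TP-472 replicate 3. It was 7 (8.97%, against 9.82%) without vehicle replicate 1 and 25 (32.1%, against 12.8%) without vehicle replicate 2.

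Summed over members, the level was 3095, 3761, 2828 and 3661 CPM in vehicle and 4287, 4625, 4643 and 4000 CPM in TP-472 libraries. Every TP-472 library therefore lay above every vehicle library. The means were 3336 ± 448 CPM (SD, n = 4) and 4389 ± 306 CPM (SD, n = 4), a ratio of 1.32, or 1.25 without vehicle replicate 3. Sums of large subunit members went from 2132 ± 282 to 2792 ± 190 CPM, and sums of small subunit members from 1184 ± 159 to 1569 ± 115 CPM (SD, n = 4 each). Both subunits thus showed ratios of similar size, 1.31 and 1.33. The small over the large subunit sum was 0.553, 0.553, 0.555 and 0.56 in vehicle and 0.564, 0.564, 0.563 and 0.556 in TP-472 libraries, and the groups overlapped.

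**Figure D2:**
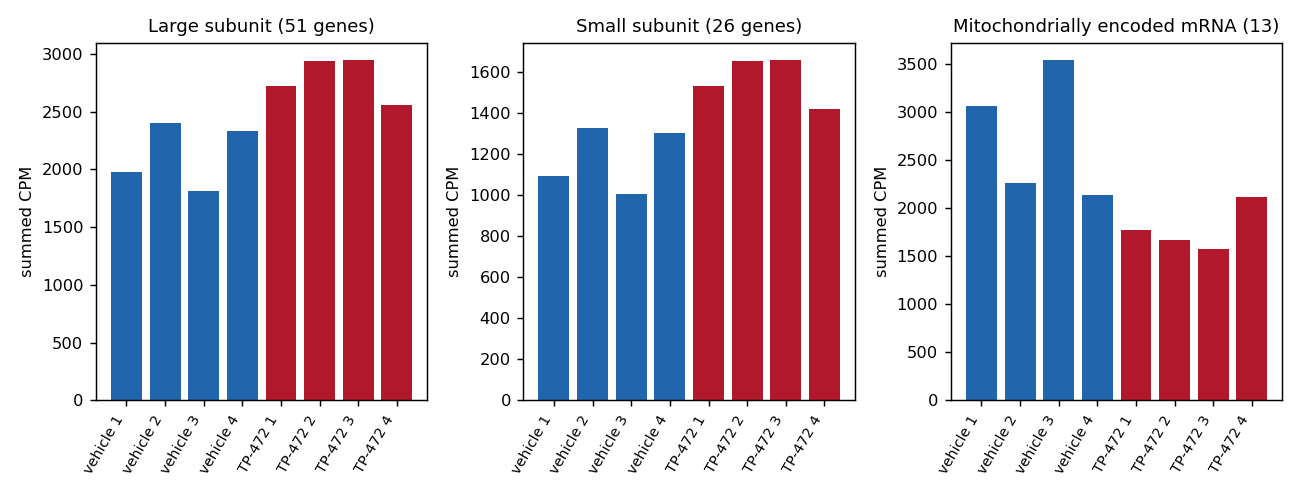
Summed levels by library. Bars give the sum of TMM-scaled CPM in each of the 8 libraries, vehicle in blue and TP-472 in red, for large subunit members, small subunit members and the 13 mRNAs encoded by mitochondrial DNA. All 4 TP-472 bars stand above all 4 vehicle bars for both subunits, and all 4 stand below them for the mitochondrial mRNAs.

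By subunit, 19 of 51 large subunit members rose, 9 of them more than 1.5-fold, with a median log2 fold change of 0.39. Of 26 small subunit members, 8 rose, 6 of them more than 1.5-fold, with a median of 0.44. Proteins of bacterial origin accounted for 18 calls among 47 members (median 0.41), and proteins specific to mitochondria for 9 among 30 (median 0.38). Over 1.5-fold there were 12 of the former and 3 of the latter, where 12.0% of all genes tested rose by as much. MRPS18B was counted here as specific to mitochondria, and with it among proteins of bacterial origin (a class change added once the data had been seen) the calls were 19 of 48 and 8 of 29, with 13 and 2 over 1.5-fold. Of all genes tested, 17.2% rose. Without vehicle replicate 3, the calls were 33 of 51 large and 16 of 26 small subunit members, and 30 of 47 of bacterial origin and 19 of 30 specific to mitochondria, against 28.6% of all genes. Over 1.5-fold they were then 5 large and 5 small subunit members, 8 of bacterial origin and 2 specific to mitochondria. These differences between classes of members were not tested. The 23 promoters of called members held the ETS core in 9 cases, YY1 letters in 9, NRF1 letters in 7 and the E box in 2, and the 46 promoters of the other members in 20, 10, 6 and 4 cases.

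**Figure D3:**
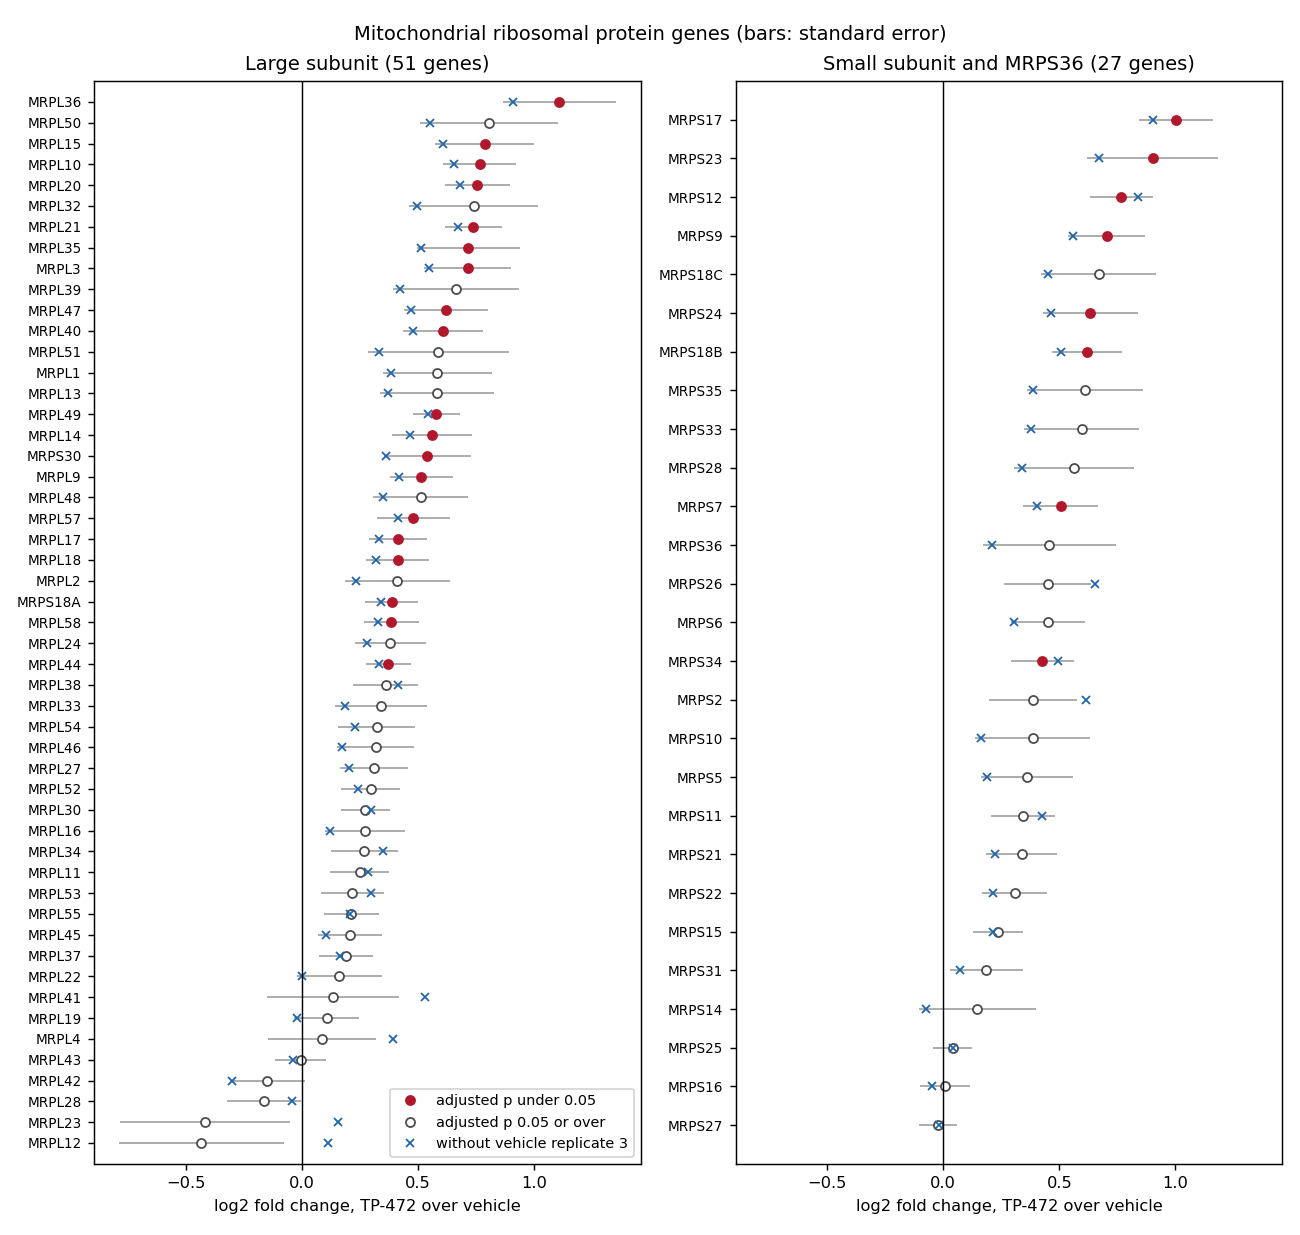
Change of each member. Points give the log2 fold change of TP-472 over vehicle for large subunit members (left) and small subunit members with MRPS36 (right), bars the standard error, and filled red points an adjusted p under 0.05 (edgeR). Blue crosses give the estimate without vehicle replicate 3. All filled points lie above 0, and for 5 members, MRPL12, MRPL23, MRPL19, MRPS14 and MRPS16, the point and the cross lie on opposite sides of 0.

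In the large subunit, MRPL36 had the largest estimate. It encodes bL36m, a very small protein of bacterial origin. Its level was 17.5, 25.2, 11.3 and 25.9 CPM in vehicle and 41.3, 46.3, 47.0 and 37.7 CPM in TP-472 libraries, so that the lowest treated value lay well above the highest vehicle value. The log2 fold change was 1.11 (SE 0.24, adjusted p = 0.00867 by edgeR), and 0.91 without vehicle replicate 3, its lowest library.

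MRPL15 encodes uL15m, a protein of bacterial origin bound to the rRNA of the large subunit. Its level was 26.8, 34.1, 17.1 and 33.4 CPM in vehicle and 46.6, 53.3, 51.7 and 40.5 CPM in TP-472 libraries. This gave a log2 fold change of 0.79 (SE 0.21, edgeR adjusted p = 0.0201), with no overlap between the groups, and the call was lost without TP-472 replicate 2 or 3 or vehicle replicate 1 (edgeR adjusted p from 0.0545 to 0.0611). MRPL10 encodes uL10m, the base of the stalk that recruits translation factors to the ribosome. Its level was 21.3, 29.6, 18.4 and 25.6 CPM in vehicle and 41.0, 41.7, 42.5 and 36.3 CPM in TP-472 libraries. The log2 fold change was 0.77 (SE 0.16, edgeR adjusted p = 0.00626), and the groups were again separate. MRPL20 encodes bL20m, a protein known in bacteria for its role in assembly of the large subunit. Its level was 35.7, 46.3, 34.7 and 47.2 CPM in vehicle and 67.0, 74.2, 74.9 and 60.7 CPM in TP-472 libraries. Its log2 fold change was 0.76 (SE 0.14, edgeR adjusted p = 0.00395). For each of these 3 genes, the estimate was smaller without vehicle replicate 3, at 0.61, 0.66 and 0.68.

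In the small subunit, MRPS17 had the largest estimate. It encodes uS17m, of bacterial origin. Its level was 17.7, 24.3, 15.7 and 21.5 CPM in vehicle and 37.8, 42.6, 43.5 and 34.7 CPM in TP-472 libraries, again without overlap. The log2 fold change was 1.00 (SE 0.16, edgeR adjusted p = 0.00195), and 0.90 without vehicle replicate 3. MRPS17 overlaps NIPSNAP2 on the same strand, and NIPSNAP2 was at 75.1 CPM in vehicle and 54.7 CPM in TP-472 libraries. Reads of such pairs are split by estimation, so the MRPS17 level carries that uncertainty.

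MRPS23 encodes mS23, a protein specific to mitochondria. Its level was 46.9, 73.3, 26.1 and 66.7 CPM in vehicle and 92.5, 107, 112 and 86.8 CPM in TP-472 libraries. The groups did not overlap, but the vehicle libraries spread widely, and the log2 fold change of 0.90 (SE 0.28, edgeR adjusted p = 0.0345) became 0.67 without vehicle replicate 3. The MRPS23 call was lost without any 1 of the TP-472 libraries or without vehicle replicate 1 (edgeR adjusted p from 0.0584 to 0.0895). MRPS12 encodes uS12m, which lies at the decoding center where codons are read. Its level was 30.1, 35.9, 41.6 and 36.8 CPM in vehicle and 58.4, 69.96, 64.7 and 52.7 CPM in TP-472 libraries. Here vehicle replicate 3 was the highest vehicle library, and the log2 fold change of 0.77 (SE 0.13, edgeR adjusted p = 0.00319) was 0.84 without it. MRPS9 encodes uS9m, a protein of the head of the small subunit. Its level was 32.9, 39.6, 23.8 and 40.5 CPM in vehicle and 55.7, 55.9, 58.2 and 53.1 CPM in TP-472 libraries. Its estimate on the log2 scale was 0.70 (SE 0.16, edgeR adjusted p = 0.0112), or 0.56 without vehicle replicate 3, and treated libraries lay close together above all vehicle libraries.

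MRPS18A, MRPS18B and MRPS18C are paralogs related to 1 bacterial protein, and their products occupy different places in the mitoribosome. MRPS18A, in the large subunit, was at 25.2, 30.0, 25.4 and 30.2 CPM in vehicle and 36.2, 39.2, 37.0 and 32.5 CPM in TP-472 libraries. Its log2 fold change of 0.39 (SE 0.11, edgeR adjusted p = 0.029) was the smallest estimate of the 3, and was 0.34 without vehicle replicate 3. The MRPS18A call was lost without TP-472 replicate 1, 2 or 3 or vehicle replicate 1 (edgeR adjusted p from 0.0754 to 0.0885) and with a looser filter of 10 counts in all (0.0607). MRPS18B was at 39.8, 49.5, 33.6 and 51.4 CPM in vehicle and 65.7, 72.6, 69.4 and 59.7 CPM in TP-472 libraries, with a log2 fold change of 0.62 (SE 0.15, edgeR adjusted p = 0.0131), or 0.51 without vehicle replicate 3. MRPS18C was at 28.5, 38.9, 15.8 and 37.4 CPM in vehicle and 46.5, 50.1, 51.3 and 43.8 CPM in TP-472 libraries. Its log2 fold change of 0.67 (SE 0.25) did not pass the test with all libraries (edgeR adjusted p = 0.0619), although the groups did not overlap, and passed at 0.45 without vehicle replicate 3 (edgeR adjusted p = 0.00602). Differences between the paralogs were not tested.

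**Figure D4:**
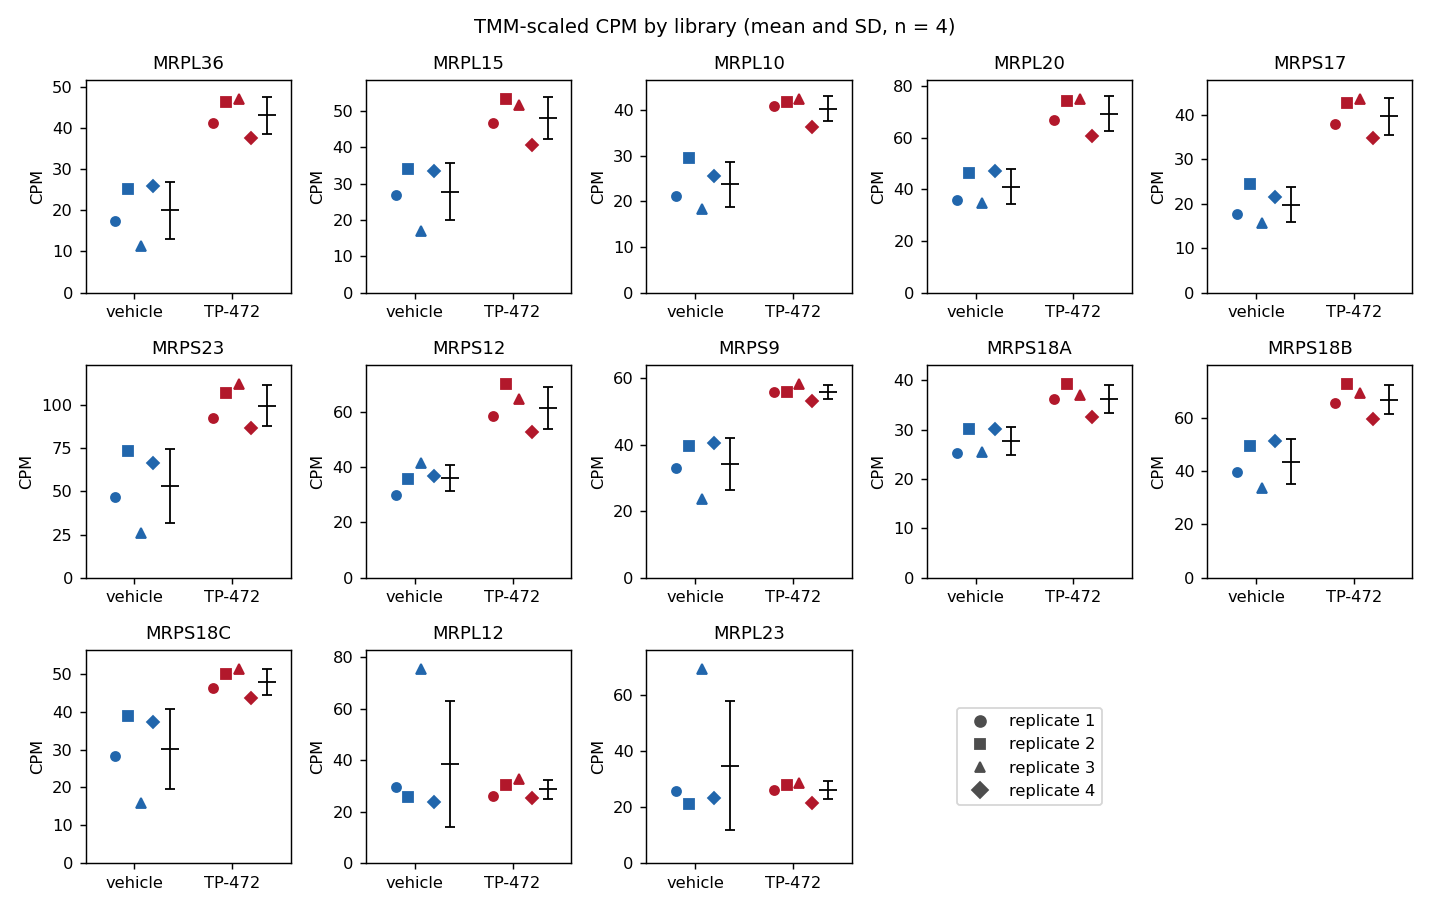
Levels by library of the 13 members described singly. Each panel gives TMM-scaled CPM from 0 on, with vehicle libraries in blue and TP-472 libraries in red, 1 symbol shape per replicate number, and the mean with SD (n = 4) to the right of each group. The groups are separate in the 11 panels from MRPL36 to MRPS18C, and in MRPL12 and MRPL23 vehicle replicate 3 stands far above the other 7 libraries.

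The lowest estimates belonged to MRPL12 and MRPL23, and neither passed the test with all libraries. MRPL12 encodes bL12m, the mobile protein of the stalk. Its level was 29.7, 25.7, 75.4 and 23.6 CPM in vehicle and 26.1, 30.2, 32.8 and 25.2 CPM in TP-472 libraries, so a single vehicle library was high and the other libraries of both groups overlapped. The log2 fold change was -0.43 (SE 0.35, edgeR adjusted p = 0.356), and 0.11 without that library (edgeR adjusted p = 0.416). MRPL23 encodes uL23m, which lies at the exit of the peptide tunnel. Its level was 25.7, 21.2, 69.3 and 23.2 CPM in vehicle and 26.3, 27.8, 28.7 and 21.5 CPM in TP-472 libraries, the same arrangement. Its estimate on the log2 scale was -0.42 (SE 0.37, edgeR adjusted p = 0.385), and 0.15 without vehicle replicate 3 (edgeR adjusted p = 0.259). In all, 5 members had an estimate within 0.1 of 0, among them MRPS27, at 113, 114, 116 and 109 CPM in vehicle and 113, 109, 113 and 110 CPM in TP-472 libraries, with an estimate of -0.02 with and without vehicle replicate 3. Leaving out this library put 9 members within 0.1 of 0, of which 4 were among the 5. MRPL4, the remaining 1, was at 0.09 with all libraries (edgeR adjusted p = 0.788) and was called higher at 0.39 without vehicle replicate 3 (edgeR adjusted p = 0.00507). MRPL42 was at 133, 143, 84.7 and 141 CPM in vehicle and 112, 112, 114 and 116 CPM in TP-472 libraries. It was the 1 member called lower without vehicle replicate 3, where 3953 of the 13879 genes tested were called lower. Its log2 fold change was -0.30 in that fit (edgeR adjusted p = 0.00108) and -0.15 with all libraries (edgeR adjusted p = 0.488). MRPS27, MRPL4 and MRPL42 were singled out after their values were seen.

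By place in the mitoribosome, calls were spread over the structure. In the stalk, MRPL10 rose, and MRPL11 (log2 fold change 0.25) and MRPL12 (-0.43) did not pass the test. Around the peptidyl transferase center, where peptide bonds form, MRPL3 rose (0.71, from 110 to 180 CPM), and MRPL2 (0.41) and MRPL16 (0.27) did not pass. Along the peptide exit tunnel, MRPL47 (0.62) and MRPL17 (0.42) rose, and MRPL24 (0.38), MRPL45 (0.21), MRPL22 (0.16) and MRPL23 (-0.42) did not pass. In the central protuberance, a landmark of the large subunit that contacts the small one, MRPL40 (0.61), MRPL18 (0.41) and MRPL58 (0.39), the last related to release factors, rose. Its other members MRPL48 (0.51), MRPL38 (0.36), MRPL46 (0.32), MRPL27 (0.31) and MRPL55 (0.21) did not pass. In the small subunit, MRPS24 (0.63) rose and MRPS5 (0.36) did not pass at the mRNA entry. In its head, MRPS9 (0.70) and MRPS7 (0.50) rose, and MRPS33 (0.60), MRPS10 (0.38), MRPS31 (0.19) and MRPS14 (0.15) did not pass. When vehicle replicate 3 was left out, MRPL11 in the stalk and MRPL48 and MRPL38 in the central protuberance passed in addition. MRPS33 in the head also passed, and no call at these places was lost. In that fit, estimates were lower for MRPL2 (0.23), MRPL16 (0.12), MRPL45 (0.10), MRPL22 (0.0009), MRPL46 (0.17) and MRPL27 (0.20), among others. In the small subunit, MRPS5 (0.19), MRPS33 (0.38), MRPS10 (0.16) and MRPS31 (0.07) were lower, and MRPS14 turned to -0.07. Higher were MRPL11 (0.29), MRPL38 (0.42), MRPL12 (0.11) and MRPL23 (0.15).

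Compared per kilobase of transcript, which allows levels of different genes to be set side by side, the highest large subunit members in vehicle libraries were MRPL51 at 157 ± 65.1 CPM per kilobase, MRPL42 at 137 ± 30.0 and MRPL19 at 135 ± 24.6 (SD, n = 4). These 3 lay within each other's SD. The lowest were MRPL50 at 11.8, MRPL57 at 9.82 and MRPL22 at 9.53 CPM per kilobase. In the small subunit, MRPS23 at 91.8 ± 36.7, MRPS27 at 88.6 ± 2.27 and MRPS15 at 68.8 ± 5.69 CPM per kilobase were highest (SD, n = 4), and MRPS17 at 15.4, MRPS14 at 7.19 and MRPS31 at 6.58 were lowest. Length was the median over annotated protein-coding transcripts, and the isoforms in use were not examined. The members lay on 21 chromosomes, with at most 8 on any of them. In 7 members, a gene on the same strand overlapped and reached more than 10% of the level of the member, namely MRPS17, MRPS6, MRPS5, MRPS16, MRPL28, MRPL33 and MRPL53. Overlaps on the opposite strand were not examined. The study describes strand-specific libraries, whereas the label names a TruSeq RNA kit without saying whether it marks strand, so reads from opposite-strand neighbors may be included in member levels.

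Other genes of mitochondrial gene expression were compared next. Of 5 mitoribosome proteins that carry other names, none passed edgeR with all libraries, namely DAP3 (log2 fold change 0.34), CHCHD1 (0.32), GADD45GIP1 (0.20), AURKAIP1 (0.09) and PTCD3 (0.02). At an unadjusted p under 0.05, 1 of them was higher, DESeq2 called 1 (DAP3) and limma-voom 0. Without vehicle replicate 3, DAP3, GADD45GIP1 and AURKAIP1 passed. Of 28 genes for mitoribosome assembly and rRNA modification, 9 rose and 0 fell (1 lower at an unadjusted p under 0.05, 0 by DESeq2 and limma-voom), with a median of 0.22, among them MRM3, a methyltransferase of the large rRNA, at 0.75 (SE 0.14, edgeR adjusted p = 0.00394), and MPV17L2 at 0.71 (SE 0.19, edgeR adjusted p = 0.0209). MRM3 went from 21.2, 25.0, 20.8 and 27.8 CPM in vehicle to 41.5, 43.4, 41.0 and 33.3 CPM in TP-472 libraries, without overlap. Leaving out vehicle replicate 3, 15 of the 28 rose and 2 fell, METTL15 and RPUSD3, against 28.6% of all genes higher. Of 15 translation factors, 3 rose and 1 fell (median 0.24), a share close to the 17.2% of all genes, and limma-voom called 4 higher and 0 lower. MTRF1L, a release factor, rose by 0.75 and MTIF2, the initiation factor, by 0.68 on the log2 scale, whereas C12orf65 (now MTRFR), which rescues stalled ribosomes, fell by 0.32. In the fit without vehicle replicate 3, 8 translation factors rose and 3 fell, GFM2, MTIF3 and C12orf65. Of 20 genes for charging mitochondrial tRNA, 3 rose and 1 fell, also close to the share of all genes, and the median was 0.04. The list holds aminoacyl-tRNA synthetases and also GATB, GATC and QRSL1, which encode subunits of an amidotransferase. In this list, 5 genes rose and 3 fell (IARS2, SARS2 and AARS2) without vehicle replicate 3, and the median was 0.008.

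MARS2, which charges mitochondrial tRNA with methionine, had the largest change of the synthetases. It was at 11.1, 11.3, 10.7 and 11.2 CPM in vehicle and 29.8, 31.4, 31.6 and 34.3 CPM in TP-472 libraries. MARS2 thus had a log2 fold change of 1.52 (SE 0.10, edgeR adjusted p = 4e-05), and vehicle replicate 3 did not stand apart. YARS2 rose by 0.60, and AARS2 fell by 0.58 on the log2 scale. Of 11 genes for mitochondrial transcription and mRNA stability, 7 rose, where 17.2% of all genes did, and 0 fell (1 lower at an unadjusted p under 0.05 and by DESeq2, 0 by limma-voom), with a median of 0.43, and without vehicle replicate 3, 8 rose and 1 fell, MTERF2. TFB2M, which opens mitochondrial promoters for the RNA polymerase, was at 15.6, 16.1, 8.89 and 17.6 CPM in vehicle and 33.8, 37.8, 34.5 and 34.3 CPM in TP-472 libraries, a log2 fold change of 1.27 (SE 0.20, edgeR adjusted p = 0.00189). TFAM, which packages mitochondrial DNA and activates its transcription, was at 78.6, 108, 34.0 and 103 CPM in vehicle and 153, 157, 166 and 155 CPM in TP-472 libraries, a log2 fold change of 0.97 (SE 0.30, edgeR adjusted p = 0.0348). Both were separate between the groups, and the TFAM estimate was 0.71 without vehicle replicate 3. Of 22 genes for mitochondrial protein import, by which the members reach the organelle, 11 rose, each more than 1.5-fold, and 0 fell (0 also at an unadjusted p under 0.05, by DESeq2 and by limma-voom), with a median of 0.61, and 16 rose without vehicle replicate 3, 7 of them more than 1.5-fold. Of all genes, 12.0% rose more than 1.5-fold, and 28.6% rose at any fold without that library. GRPEL1, a partner of the import motor, rose by 1.24 (SE 0.15, edgeR adjusted p = 0.000587) and TOMM5, of the outer membrane pore, by 0.88 (SE 0.29, edgeR adjusted p = 0.0396).

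RNA encoded by mitochondrial DNA, the template of the mitoribosome, had estimates mostly below 0. Of the 13 mRNAs, 0 rose and 5 fell by edgeR, where 19.1% of all genes fell. At an unadjusted p under 0.05 the counts were 0 and 9, by DESeq2 0 and 8, and by limma-voom 0 and 5. The median log2 fold change was -0.73. Their summed level was 3058, 2264, 3540 and 2133 CPM in vehicle and 1774, 1663, 1577 and 2109 CPM in TP-472 libraries. Vehicle replicates 1 and 3 were high, and TP-472 replicate 4 came close to vehicle replicate 4. MT-ND5, encoding a subunit of respiratory complex I, was at 212, 151, 324 and 123 CPM in vehicle and 93.3, 79.4, 56.3 and 99.8 CPM in TP-472 libraries, a log2 fold change of -1.30 (SE 0.31, edgeR adjusted p = 0.0116). MT-ND1, also of complex I, had a log2 fold change of -1.18 (SE 0.34, edgeR adjusted p = 0.0255). Without vehicle replicate 3, 7 of the 13 fell, against 3953 of the 13879 genes tested in that fit, and the median was -0.48. MT-ND5 and MT-ND1 were then at -0.98 and -0.75. The 2 rRNAs did not pass edgeR, DESeq2 or limma-voom, MT-RNR1 at -0.43 and MT-RNR2 at -0.18, and 1 of them was lower at an unadjusted p under 0.05. Estimates for the nuclear members and for these mRNAs thus lay mostly on opposite sides of 0 in the same libraries.

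Of 9 regulators of mitochondrial gene programs, 8 were tested and 0 passed edgeR with all libraries, against 1 higher and 1 lower at an unadjusted p under 0.05 and by DESeq2, and 1 higher by limma-voom. Without vehicle replicate 3, 4 rose, where 28.6% of all genes did, and 1 fell. PPARGC1B and ESRRA were among those that rose, at 0.73 and 0.55 (edgeR adjusted p = 0.0062 and 0.000385). With all libraries they were at 0.51 and 0.32. GABPA and NRF1, whose motif letters were searched above, had log2 fold changes of 0.08 and 0.04, and GABPB1, the partner of GABPA, 0.65 (edgeR adjusted p = 0.0528), or 0.44 without vehicle replicate 3 (edgeR adjusted p = 0.00156). YY1 was at -0.22 (edgeR adjusted p = 0.0888) and was the regulator called lower, again at -0.22, without vehicle replicate 3 (edgeR adjusted p = 0.0187). MYC was at 132, 119, 282 and 124 CPM in vehicle and 200, 190, 189 and 210 CPM in TP-472 libraries, with a log2 fold change of 0.26 (edgeR adjusted p = 0.455), or 0.65 without vehicle replicate 3 (edgeR adjusted p = 4.04e-05).

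Cytosolic ribosomal protein genes and NDUF genes, which encode subunits and assembly factors of complex I, served as other large complexes, to be read against the 17.2% of all genes that rose (28.6% without vehicle replicate 3). Of 79 cytosolic ribosomal protein genes tested, 3 rose and 0 fell by edgeR (1 lower at an unadjusted p under 0.05 and by DESeq2, 0 by limma-voom), with a median log2 fold change of 0.26. RPL26L1, at 0.78, was the 1 that rose more than 1.5-fold. Of 46 NDUF genes, 9 rose and 0 fell by edgeR (0 lower at an unadjusted p under 0.05), with a median of 0.32. NDUFAF4, an assembly factor, went from 9.48, 12.1, 5.67 and 13.7 CPM in vehicle to 29.8, 30.6, 30.0 and 27.7 CPM in TP-472 libraries, a log2 fold change of 1.53 (SE 0.24, edgeR adjusted p = 0.00192). Without vehicle replicate 3, 11 cytosolic ribosomal protein genes and 17 NDUF genes rose, and RPL3 and NDUFS1 fell. Medians were then 0.11 and 0.15 for these lists, in this order, and 0.34 for the members. Differences between these lists and the members were not tested. Of 76 pseudogenes named after members, 4 passed the filter and 0 were called by edgeR, DESeq2 or limma-voom or at an unadjusted p under 0.05, and the 76 together held between 10.9 and 14.0 CPM in a library. One of them, MRPS31P5, was called lower without vehicle replicate 3.

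**Figure D5:**
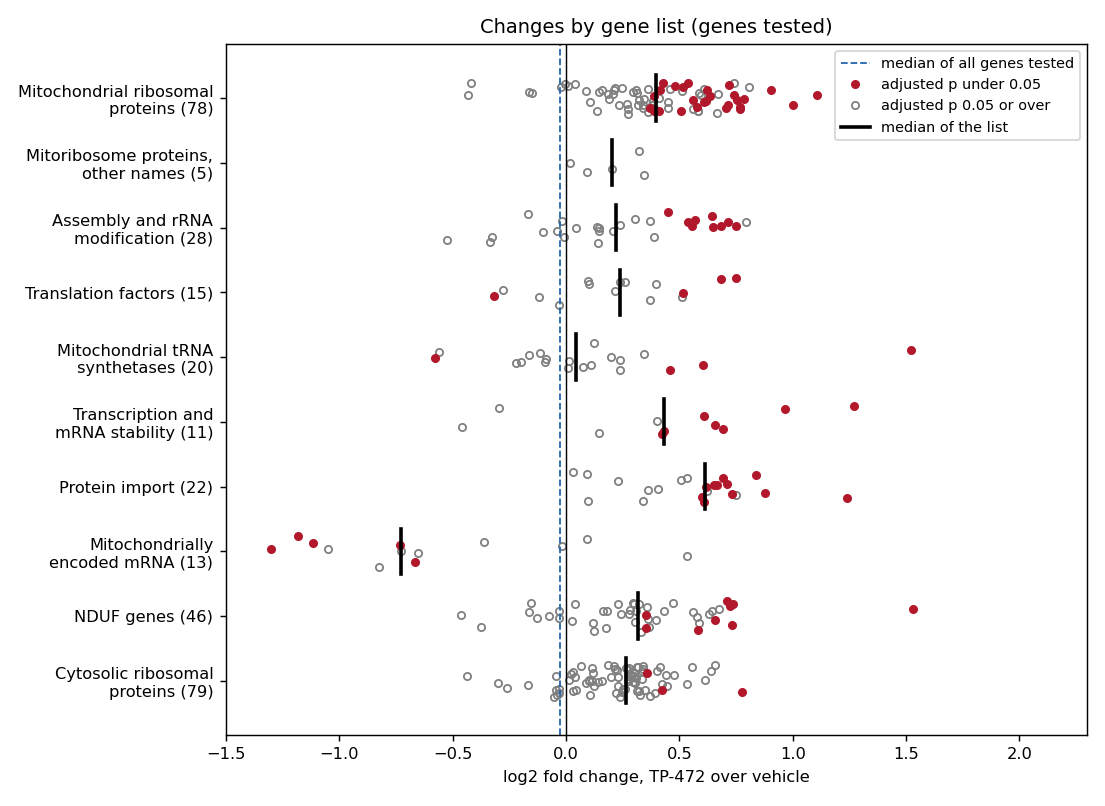
Changes by gene list. Each point is a gene tested, at its log2 fold change of TP-472 over vehicle, filled in red at an adjusted p under 0.05 (edgeR), with the number of genes tested in parentheses. Black bars give the median of each list and the dashed line that of all genes tested (-0.03). Medians run from -0.73 for mitochondrially encoded mRNAs to 0.61 for protein import, with the members at 0.40. Without vehicle replicate 3 (not drawn), these medians were -0.48, 0.51 and 0.34, in this order.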

How the data were processed

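The authors sequenced total RNA, mapped reads to the human transcriptome with salmon 1.4.0 (build GRCh38) and summed transcript estimates to genes with tximport. The deposited values are estimated counts per gene, neither scaled nor filtered, for 4 vehicle and 4 TP-472 libraries.

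Here the counts were rounded, scaled by TMM and tested over all 14073 genes that passed the filter by edgeR 4.0.16 (quasi-likelihood F test; R 4.3.3), with group as the sole term because the labels name no batch. Benjamini-Hochberg adjustment ran over all these genes. Alternatives were DESeq2 1.42.0, limma-voom (limma 3.58.1), other scalings and filters, a replicate block, removal of GC or length trends and leaving out each library. No pair of libraries agreed within sampling noise (lowest mean chi-square 12.8). Length and GC content, known for 99.3% of the genes tested, came from GENCODE release 29, which is earlier than the release the authors used.

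Members and gene lists were chosen with earlier results of these data known. Described by library were the 4 members per subunit and direction with the largest change among those past the threshold, the MRPS18 paralogs and the lowest 2 estimates. Described by level were the highest 3 and lowest 3 per subunit, by place all members assigned to a site, and in other lists the largest 2 changes per direction, or all of up to 5 genes. In the cytosolic ribosomal protein and NDUF lists only the largest change was described. Markers and regulators were described apart from this rule.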

Additional observations from a re-analysis of the deposited data

Results flagged for a closer look

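Of 72 groups of 4 libraries examined for values given by library, 6 held 1 library far from the other 3. Chance alone gives about 1 in 20 for independent groups. These groups share the same libraries, and MRPL12 and MRPL23 were picked for their low estimates, so the 6 cannot be read as an excess. In 5 of them it was vehicle replicate 3, and it was high each time, with 75.4 CPM for MRPL12, 69.3 CPM for MRPL23, 88.9 CPM for AURKAIP1, 71.9 CPM for GADD45GIP1 and 282 CPM for MYC. In the other it was TP-472 replicate 4, whose ratio of the small to the large subunit sum was 0.556 against 0.563 to 0.564 in the other 3. Over all 78 members, 7 of 156 groups held such a library, which is close to about 1 in 20. It was vehicle replicate 3 in 6 of them and TP-472 replicate 3 in the other.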

How the results depend on the processing

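The 27 members called higher became 48 with the GC trend removed, 53 (67.9%, against 30.7% of all genes) with the GC trend removed and without vehicle replicate 3 (chosen after seeing the data), 17 (21.8%, against 12.2%) with a looser filter of 10 counts in all, 14 (17.9%, against 11.9%) with a replicate block and 9 to 49 when each library was left out. The count over 1.5-fold (15) became 29 (37.2%, against 14.9% of all genes) with the GC trend removed and 7 to 25 when each library was left out. The count of members called lower was 1 instead of 0 with the GC trend removed, without vehicle replicate 3 and with both. Of all genes, 3298 of 14073, 3953 of 13879 and 3817 of 13879 were called lower in these fits. DESeq2 called 33 members higher (42.3%, against 19.9% of all genes) and limma-voom 30 (38.5%, against 18.0%). Other scalings, the stricter filter and removal of the length trend gave 26 to 28 (33.3% to 35.9%, against 16.4% to 18.1%). The median log2 fold change of members stayed between 0.34 and 0.50. MRPL12 turned to 0.20 with the GC trend removed, 0.11 without vehicle replicate 3 and 0.26 with both, and MRPL23 to 0.16, 0.15 and 0.29. With both changes the 2 genes were called higher (edgeR adjusted p = 0.0442 and 0.0155). When each library was left out, MRPL12 ranged from -0.617 to 0.113 and MRPL23 from -0.605 to 0.154. The cause was not tested. Over 18 alternatives, MRPL36, MRPS17, MRPS12, MRPL10, MRPL20, MRPS9 and MRPS18B kept direction and call, MRPL15 lost the call in 3, MRPS23 in 5 and MRPS18A in 6 (with the replicate block, edgeR adjusted p = 0.0893), and MRPS18C gained it in 7. Same-numbered libraries of the 2 groups did not deviate together (r from -0.18 to 0.12), and no library matched its own number best, so the replicate block pairs samples by number alone. No library was thinned, so the limit set by depth was not measured.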
